A study of Mus musculus with 3 samples.

Results

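Integrins, cadherins and other cell adhesion genes were examined in wild-type mouse blood stem cells. Members were chosen by gene symbol and not by their values, though earlier results of these data were known when they were chosen. They comprise the integrin alpha and beta subunits, the numbered cadherins, the ICAMs, the junctional adhesion molecules, the selectins and PSGL-1, with Vcam1, Cd44, Cd47 and Alcam. Itga2b, Itgb3, Itgam and Cdh5 were not among them. The rule found 58 of the 19938 genes measured, each through probe sets that name 1 gene, and all 58 had a value on every array.

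The bone marrow donors were C57Bl/6 mice, 6 to 10 weeks old, labelled wild-type, with no treatment given in the labels. They were sorted as KLS SLAM cells, which lack lineage markers, CD48 and CD41 and bear c-Kit, Sca-1 and CD150. There is 1 group of 3 arrays, called arrays 1, 2 and 3 after their labels, so no conditions were compared. The labels do not say whether the arrays hold separate animals or pools, so the spread between them may be technical.

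Integrins are pairs of an alpha and a beta subunit that bind matrix proteins or receptors on other cells once talin and kindlin engage the beta tail. Cadherins bind like cadherins on neighbouring cells and are tied to actin by catenins. In marrow, the alpha-4 beta-1 integrin holds stem cells to VCAM-1 and fibronectin, selectins and their ligand PSGL-1 slow cells on vessel walls, and CD44 binds hyaluronan.

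Levels are log2 of the deposited intensity, with SD over n = 3 arrays. A gene is called above the background range when it passed, on all 3 arrays, the 95th percentile of 1227 receptor genes of smell, taste and the vomeronasal organ, which marrow cells should not need. The 3 limits were 6.30, 5.98 and 5.77 log2 for arrays 1, 2 and 3. Each probe set has its own affinity, so single genes were not compared by level, medians over lists describe array signal only, and a gene below the limit is not shown to be absent. In bulk RNA, fewer cells that use a gene and less of its RNA per cell cannot be told apart.

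Counts of markers above the range are to be read against 36.8% of all genes measured. The sort genes Kit and Slamf1, which encode c-Kit and CD150, were above the range, and Cd48 passed the limit on array 3 alone, at 4.61, 5.62 and 6.14 log2 on arrays 1, 2 and 3. Of 9 measured stem cell markers 8 were above the range, Procr, Mecom and Hlf among them, with Hoxb5 missing it on array 1. Granulocyte markers, which the sort should have removed, were above it in 8 of 10 cases, S100a8, S100a9 and Ngp among them, with Mmp9 and Elane missing it on array 1. Their list mean was 8.42, 9.25 and 9.11 log2 for arrays 1, 2 and 3. Endothelial markers had 6 of 10 above it, Pecam1 among them, but not Cdh5, Kdr, Flt1 or Plvap. Megakaryocyte and platelet markers had 4 of 6, namely Pf4, Gp9, Treml1 and Itgb3, with Ppbp and Gp5 short of it. Monocyte and macrophage markers had 2 of 8, Lyz2 and Cd68, with Csf1r, Adgre1 and C1qa below the limit on every array. Marrow stroma had 3 of 8, Cxcl12, Col1a1 and Col1a2, but not Lepr. Erythroid cells had 2 of 5, Tfrc and Slc4a1, but not Klf1, Epor or Alas2. Mast cells, basophils and eosinophils had 1 of 6, Prg2, but not Cpa3, Mcpt8 or Ms4a2. B cells had 1 of 5, Cd79b but not Cd79a, Ms4a1, Pax5 or Ebf1, and T and NK cells had 0 of 6, Cd3e, Cd3g and Cd4 included.

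Of the 58 adhesion genes, 11 exceeded the background range, which is 19.0% of them against 36.8% of all genes measured. The 11 were the integrin genes Itga4, Itga6, Itgav and Itgb1, the immunoglobulin superfamily genes Alcam, Cd47, F11r, Icam1 and Icam2, and Selplg and Cd44. A further 15 passed the limit on 1 or 2 arrays, 25.9% against 21.1% of all genes, and 32 passed it on none, 55.2% against 42.0% of all genes. The median over the 58 genes of the mean array signal was 5.65 log2, beside 5.96 over all genes, a description that holds probe affinity as well as RNA. Array 1, which had the highest limit, decided 7 of the calls that were missed: without it 18 of the 58 were above the range, 31% against 46.9% of all genes.

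**Figure D1:**
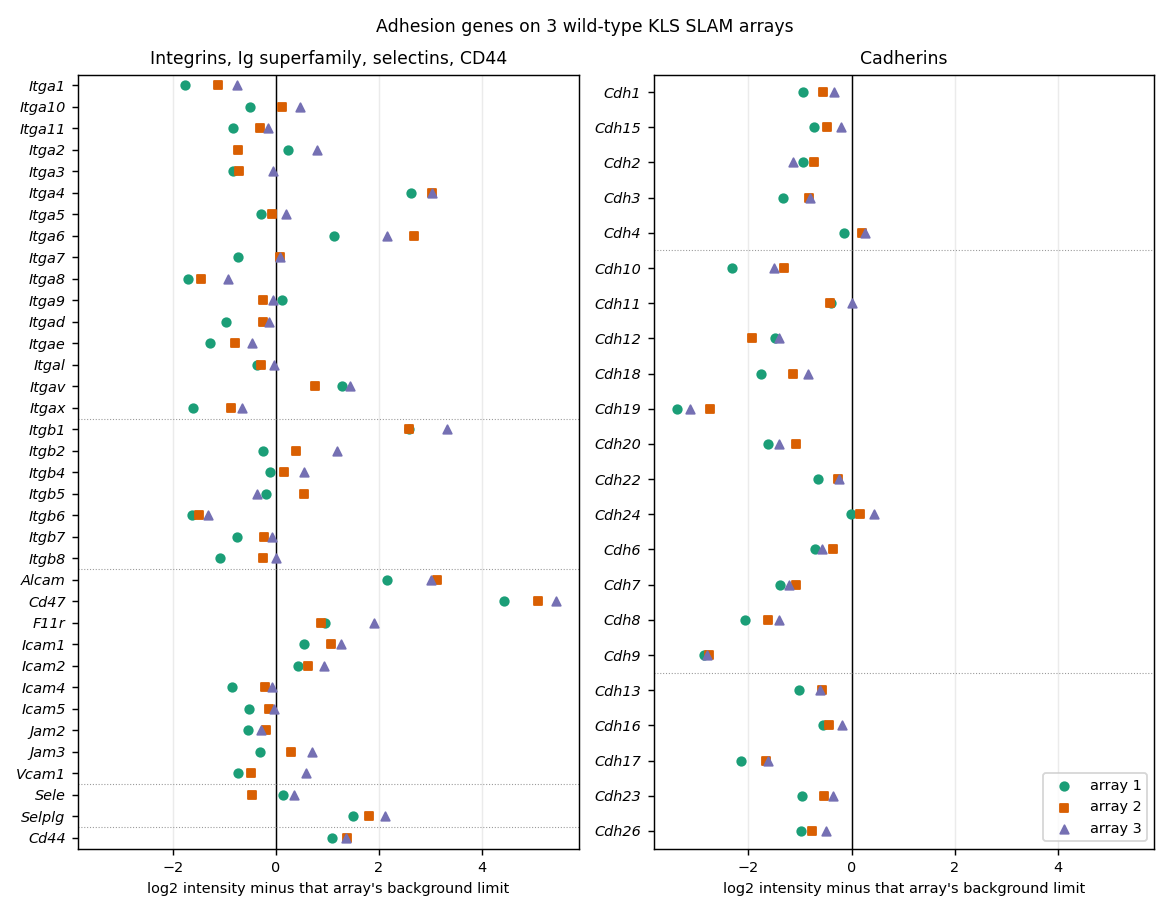
Log2 intensity of each of the 58 adhesion genes minus the background limit of the same array, on 3 wild-type arrays. Points right of the line at 0 passed the limit. The left panel holds the 11 genes with all 3 points right of the line, and none of the 22 cadherins in the right panel has.

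Integrin alpha subunits select the ligand, and 3 of the 16 measured were above the range, against 36.8% of all genes, or 5 without array 1, against 46.9%. Itga4 (probe set 10473125), whose product binds VCAM-1 and fibronectin, was at 8.90, 9.01 and 8.79 log2 on arrays 1, 2 and 3, a mean of 8.90 ± 0.11. Its values were nearly level across the arrays, all more than 2 log2 above the limit. Itga6 (probe set 10472820), the laminin receptor subunit, was at 7.42, 8.65 and 7.93 log2, with an SD of 0.62. Array 2 was the highest and array 1 the lowest, 2.36-fold apart. Itgav (probe set 10473281), which encodes the subunit of the integrins that bind vitronectin and latent TGF-beta, was at 7.58, 6.74 and 7.20 log2, a mean of 7.17 ± 0.42. Here the order of arrays 1 and 2 was the opposite of that for Itga6.

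Another 3 alpha subunits passed on 2 arrays. Itga2, which encodes a collagen receptor subunit also found on platelets, was at 6.53 and 6.57 log2 on arrays 1 and 3 but 5.25 on array 2. Array 2 alone put it below the limit. Itga10, a collagen receptor subunit of cartilage, was at 5.80, 6.08 and 6.22 log2 on arrays 1, 2 and 3. Itga7, a laminin receptor subunit of muscle, was at 5.56, 6.05 and 5.85 log2. Both missed the limit on array 1 alone.

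Itga5, the fibronectin receptor subunit, was at 6.01, 5.91 and 5.97 log2 and passed on array 3 only, though its values differed by no more than 0.10 log2. Itga9, a close relative of Itga4, was at 6.41, 5.73 and 5.72 log2 and passed on array 1 only, its highest array. The other 8 alpha genes, Itga1, Itga3, Itga8, Itga11, Itgad, Itgae, Itgal and Itgax, were below the limit on every array, with means from 4.65 ± 0.17 for Itga8 to 5.79 ± 0.14 for Itgal. Itgal, Itgad and Itgax encode leukocyte integrin subunits that pair with beta-2, and Itgae the one that binds E-cadherin.

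Integrin beta subunits carry the tail that talin binds, and 1 of the 7 measured was above the range, against 36.8% of all genes, or 3 without array 1, against 46.9%. The 1 was Itgb1 (probe set 10576661), the shared partner of most matrix-binding alpha subunits, at 8.88, 8.56 and 9.09 log2 on arrays 1, 2 and 3, a mean of 8.84 ± 0.27. Itgb2, the common beta subunit of leukocytes, was at 6.05, 6.37 and 6.96 log2, a mean of 6.46 ± 0.46, and missed the limit on array 1 alone. Array 1 also had the lowest mean of the granulocyte markers, whose cells carry beta-2 integrins, and the lowest value of Itgam, the alpha subunit of granulocytes and macrophages, at 5.57, 6.49 and 6.42 log2. Both were highest on array 2, whereas Itgb2 was highest on array 3. The stem cell list mean was lowest on array 1 too, at 7.65, 7.86 and 7.81 log2, while other lists, such as the endothelial, were lowest elsewhere. Whether granulocytes or macrophages account for the beta-2 signal was not tested. The part of their RNA in the values of the other adhesion genes was not tested either.

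Itgb4, the hemidesmosome subunit of epithelia, was at 6.18, 6.14 and 6.31 log2 and likewise missed the limit on array 1 alone. Itgb5, a partner of alpha-v, was at 6.11, 6.52 and 5.40 log2, above the limit on array 2 only. Itgb8, another partner of alpha-v, was at 5.21, 5.71 and 5.77 log2 and passed on array 3 by 0.001 log2. Itgb6, an epithelial subunit, and Itgb7, the lymphocyte gut-homing subunit, were below the limit on every array, at 4.54 ± 0.11 and 5.66 ± 0.11 log2.

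A surface integrin needs both subunits, so known pairs were read together. Of 21 pairs whose subunits are both among the 58 genes, 3 had both above the range. All 3 contain beta-1, which takes part in 12 of the pairs. This follows from the single-gene calls, since Itgb1 was the only 1 of the 7 beta genes above the range. They were alpha-4 beta-1, alpha-6 beta-1 and alpha-v beta-1. In 9 pairs Itgb1 was above the range and the alpha subunit was not. In 5 the alpha subunit was above it and the beta subunit was not, namely alpha-4 beta-7, alpha-6 beta-4 and alpha-v with beta-5, beta-6 or beta-8. The 4 remaining pairs, alpha-L, alpha-X and alpha-D with beta-2 and alpha-E beta-7, had neither. Without array 1 the number of pairs with both subunits above the range was 6. The left-out integrin genes Itga2b and Itgb3, which form the fibrinogen receptor of platelets, were both above it, at 6.37 ± 0.14 and 6.23 ± 0.11 log2, although the sort excluded CD41, the product of Itga2b. Beta-3 is also a partner of alpha-v. The pair alpha-v beta-3, outside the 21, thus had both subunit genes above the range as well. However, Itgb3 passed the limit on array 1 by only 0.04 log2. With the limit from olfactory receptor genes alone, 1 of the 4 left-out genes was above it, against 35.6% of all genes. At the 99th percentile 0 of the 4 were, against 17.4%, whereas the 3 pairs with beta-1 held.

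**Figure D2:**
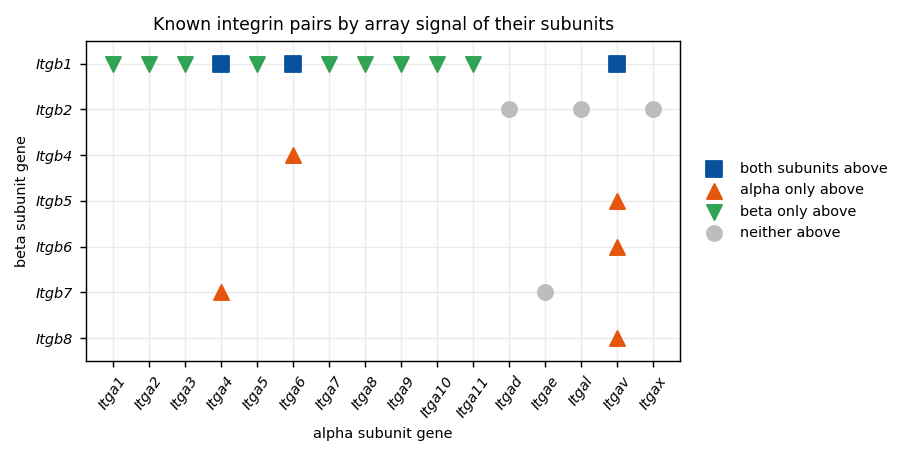
Known integrin pairs, with the alpha subunit gene across and the beta subunit gene down. Each marker is 1 of 21 pairs, and its shape tells which subunit was above the background range on all 3 arrays. The 3 squares, where both were, lie in the row of Itgb1, the only beta subunit gene shown that was above it.

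Cadherins had 0 of 22 measured genes above the range, against 36.8% of all genes, and 19 of the 22 were below the limit on every array, against 42.0% of all genes. Without array 1, Cdh4 and Cdh24 were above it. The classical type I genes Cdh1, which encodes E-cadherin, Cdh2 for N-cadherin, Cdh3 for P-cadherin and Cdh15 for the muscle cadherin were below the limit on every array. N-cadherin has been proposed as a tether of stem cells to bone-lining cells, and Cdh2 was at 5.35, 5.25 and 4.63 log2 on arrays 1, 2 and 3, a mean of 5.08 ± 0.39. Cdh1 was at 5.35, 5.42 and 5.43 log2, and its values spanned only 0.08 log2.

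The 3 cadherin genes that passed on some arrays lay close to the limit. Cdh4, the retinal cadherin of type I, was at 6.15, 6.17 and 6.02 log2 and missed the limit on array 1 alone. Cdh24, of type II, was at 6.29, 6.15 and 6.20 log2 and missed it on array 1 alone, by a difference of -0.006 log2. Its 2 probe sets lay on both sides, at 6.33 ± 0.17 log2, above the limit on every array, and 6.09 ± 0.14 log2, above it on array 3 only. Cdh11, the osteoblast cadherin, was at 5.91, 5.55 and 5.78 log2 and passed on array 3 alone, and 3 more probe sets that it shares with other genes were not used.

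The other type II genes, Cdh6, Cdh7, Cdh8, Cdh9, Cdh10, Cdh12, Cdh18, Cdh19, Cdh20 and Cdh22, most of them known from the nervous system, had means from 2.93 ± 0.30 log2 for Cdh19 to 5.63 ± 0.10 for Cdh22. The atypical cadherins Cdh13, which has a lipid anchor, Cdh16 and Cdh17, of kidney and gut epithelium, Cdh23, of inner ear hair cells, and Cdh26 had means from 4.21 ± 0.10 log2 for Cdh17 to 5.62 ± 0.11 for Cdh16. None of these 15 genes passed the limit on any array. Cdh5, the endothelial cadherin left out by the rule, was also below it on every array, at 5.42 ± 0.23 log2.

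Immunoglobulin superfamily genes had 5 of 10 above the range, against 36.8% of all genes, or 3 of 10 at the 99th percentile, against 17.4%. Cd47, whose product tells phagocytes through SIRP-alpha not to engulf the cell, was at 10.71, 11.06 and 11.19 log2, a mean of 10.99 ± 0.25. Its 2 probe sets were both above the limit on every array, at 10.32 ± 0.34 and 11.66 ± 0.27 log2. Alcam (probe set 10439895), which binds itself and CD6, was at 8.45, 9.11 and 8.77 log2, a mean of 8.78 ± 0.33.

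The junctional adhesion molecules differed in their calls. F11r (probe set 10351623), which encodes JAM-A, was at 7.25, 6.85 and 7.66 log2, a mean of 7.25 ± 0.41, and above the limit on every array. Jam3, whose product JAM-C binds JAM-B, was at 5.99, 6.27 and 6.47 log2 and missed it on array 1 alone. Jam2, the gene of JAM-B, was below it on every array at 5.76, 5.77 and 5.48 log2.

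Of the ICAM genes, whose products are ligands of beta-2 integrins, Icam1 (probe set 10583519) was at 6.84, 7.04 and 7.02 log2 and Icam2 (probe set 10392177) at 6.72, 6.60 and 6.70 log2. They were the 2 of the 11 genes that fell below a limit set at the 99th percentile, under which 9 of the 58 and 17.4% of all genes were above. Icam4, the erythroid ICAM, and Icam5, of the brain, were below the limit on every array at 5.63 ± 0.16 and 5.78 ± 0.06 log2. Vcam1, the counter-receptor of alpha-4 beta-1, was at 5.57, 5.50 and 6.36 log2 and passed on array 3 only.

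Selplg (probe set 10532744), the gene of PSGL-1, was at 7.78, 7.78 and 7.88 log2, a mean of 7.81 ± 0.06, with a range over the arrays of 0.11 log2. Sele, the E-selectin of activated endothelium, was at 6.44, 5.51 and 6.11 log2 and missed the limit on array 2 alone. The endothelial list mean was 6.30, 6.18 and 6.34 log2 on arrays 1, 2 and 3. Of its 10 genes, 3, 4 and 3 were lowest on arrays 1, 2 and 3, beside 6807, 5737 and 7394 of all 19938 genes. The part of endothelial RNA in the Sele values was not tested. Cd44 (probe set 10485405) was at 7.39, 7.36 and 7.13 log2, a mean of 7.29 ± 0.14, above the limit on every array.

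**Figure D3:**
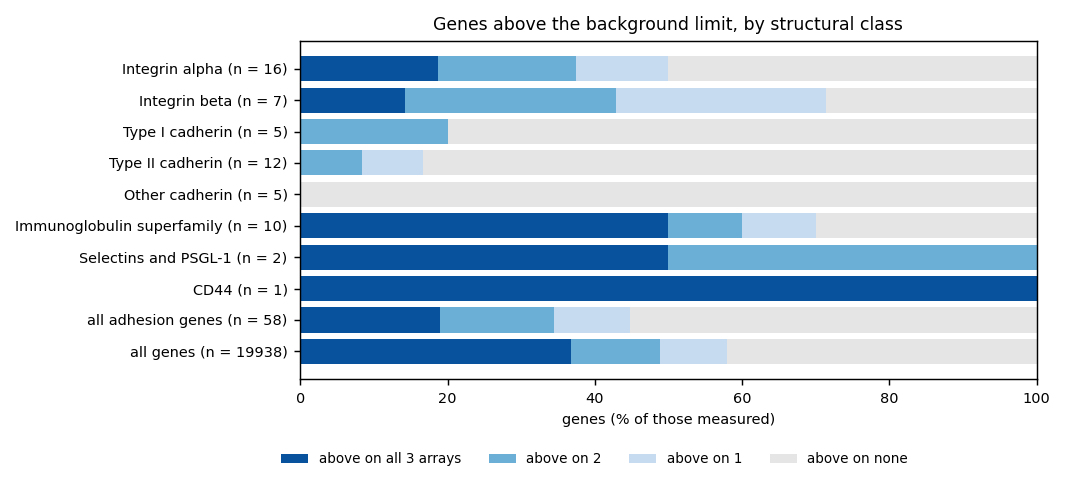
Share of genes above the background limit on all 3 arrays, on 2, on 1 or on none, for each structural class, for the 58 adhesion genes and for all 19938 genes. The 3 cadherin bars have no dark segment, the immunoglobulin superfamily has 5 of its 10 genes in it and all genes have 36.8%.

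The median SD between the 3 arrays was 0.19 log2 over the 58 genes, beside 0.22 over all genes. By mean level the 2 medians were 0.24 beside 0.21 for the 13 genes under 5 log2, 0.14 beside 0.19 for the 25 genes from 5 to 6, 0.22 beside 0.22 for the 11 from 6 to 7 and 0.27 beside 0.31 for the 9 above that, so the difference from all genes had no one direction. Of the 58, 3 had a range over 1 log2, 5.17% against 10.5% of all genes. The 3 were Itga2 with 1.32 log2, Itga6 with 1.24 and Itgb5 with 1.13. Array 2 was the lowest for Itga2 and the highest for Itga6 and Itgb5. Each gene's variance was set against the variance trend at its level over all 19938 genes (limma, one-sided F test, Benjamini-Hochberg adjustment). None of the 58 passed an adjusted p of 0.05, and 0.0% of all genes did. At an unadjusted p under 0.05 the counts were 2 of the 58, or 3.45%, against 5.1% of all genes. The 5 smallest p-values by this limma test belonged to Itga2 (adjusted p = 0.925), Itgb5 (adjusted p = 0.967), Vcam1 (adjusted p = 0.973), Sele (adjusted p = 0.976) and Itgb2 (adjusted p = 0.983), of which the first and second were the 2 under 0.05 before adjustment. With 3 arrays such a test has little reach, and a p above the threshold does not show that the values were equal. The trend was fitted to these same genes, so a spread shared by all genes cannot show in the test. It can only pick out genes that vary more than others of their level.

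No array was the highest for most of the genes. Array 1 held the highest value of 16 of the 58 genes, array 2 of 23 and array 3 of 19, which is 27.6%, 39.7% and 32.8% of them against 31.6%, 38.6% and 29.8% of all genes. On the arrays taken singly, 14, 19 and 24 of the 58 passed the limit, 24.1%, 32.8% and 41.4% against 39.3%, 49.1% and 55.2% of all genes. The 7 genes that missed the limit on array 1 alone, Itga7, Itga10, Itgb2, Itgb4, Cdh4, Cdh24 and Jam3, are 12.1% of the 58, beside 10.0% of all genes.

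**Figure D4:**
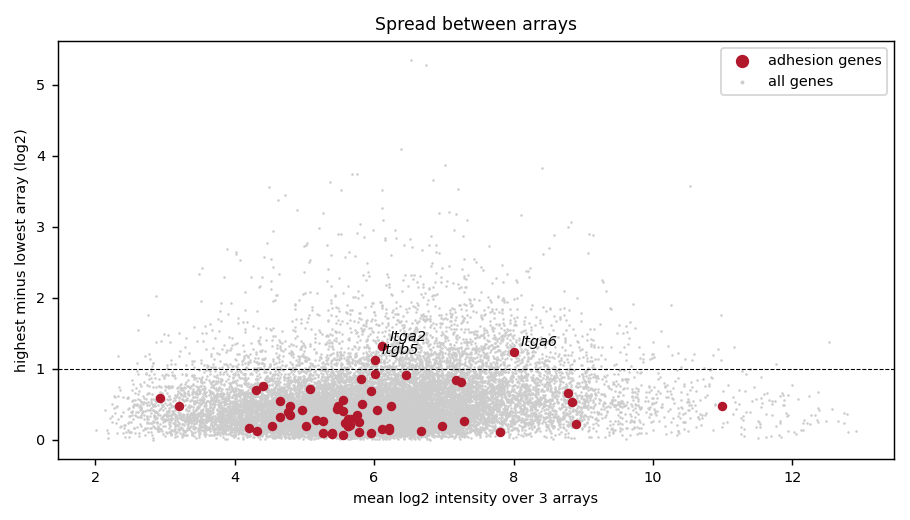
Highest minus lowest array in log2 (vertical) against the mean log2 intensity over 3 arrays (horizontal), for the 58 adhesion genes in red and all genes in grey. The dashed line marks a range of 1 log2, and the 3 named genes, Itga2, Itga6 and Itgb5, lie above it.

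Genes that switch integrins on and tie them to actin were above the range in 23 of 34 cases, 67.6% against 36.8% of all genes, with a median mean level of 7.03 log2. With the 99th percentile as the limit it was 15 of 34, against 17.4% of all genes. Tln1, the talin that opens integrins, was at 7.58 ± 0.16 log2 and above the range, whereas its relative Tln2 was below the limit on every array at 5.52 ± 0.19. Of the kindlins, Fermt3, the form of blood cells, was above it at 6.77 ± 0.28 log2, and the epithelial Fermt1 and the widespread Fermt2 were below it on every array at 4.43 ± 0.14 and 5.04 ± 0.08. The 11 genes of this list that missed the range on some array also included Vcl, Parva, Parvb, Lims2, Src, Bcar1, Actn1 and Cib1. Ptk2 is not analysed here.

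Catenins and other cadherin partners were above the range in 5 of 13 cases, 38.5% against 36.8% of all genes, a share near the background. The count was 8 of 13 without array 1, against 46.9% of all genes, and 2 of 13 at the 99th percentile, against 17.4%. Ctnnb1, which encodes beta-catenin, also a Wnt effector, was at 7.80 ± 0.13 log2, Ctnna1 for alpha-catenin at 7.11 ± 0.16 and Ctnnd1 for p120-catenin at 7.48 ± 0.32. The other 2 were Pkp3 at 6.54 ± 0.11 log2 and Afdn, which encodes afadin, at 6.88 ± 0.71. Jup, the gene of plakoglobin, was at 6.28 ± 0.29 log2 and missed the limit on array 1 alone.

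Carriers of selectin ligands and the enzymes that decorate them were above the range in 9 of 15 cases, against 36.8% of all genes, or 5 of 15 at the 99th percentile, against 17.4%. Among the carriers, Glg1, which encodes the E-selectin ligand ESL-1, was at 7.51 ± 0.48 log2, Cd34 at 8.48 ± 0.45 and Spn, the gene of CD43, at 8.18 ± 0.26. Podxl, a relative of Cd34, was at 6.27 ± 0.18 log2 and missed it on array 1 alone. The sulphotransferase genes Tpst1 and Tpst2, whose products modify PSGL-1, were above the range. Fut7, the fucosyltransferase of leukocyte selectin ligands, was at 6.28, 6.95 and 6.56 log2 on arrays 1, 2 and 3, short of the limit on array 1 alone, and Fut4 was below it on every array at 5.13 ± 0.19.

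**Figure D5:**
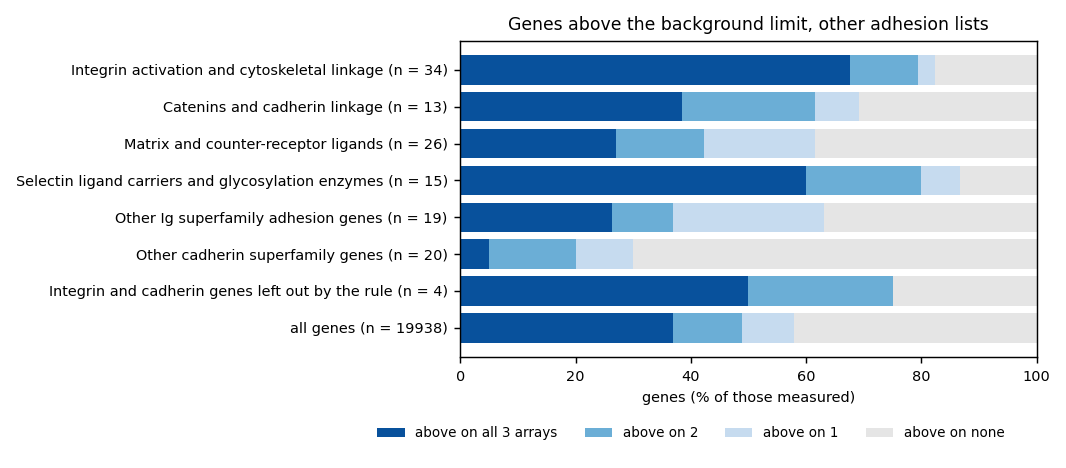
Share of genes above the background limit on all 3 arrays, on 2, on 1 or on none, for other adhesion gene lists and for all 19938 genes. The dark segment reaches 67.6% for integrin activation genes and covers 9 of the 15 selectin ligand genes, beside 36.8% for all genes.

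Promoter windows from RefSeq, running from 250 bases before to 50 bases after a gene's start on build GRCm38.p6, were matched by symbol for 37 of the 58 genes. CpG dinucleotides, which read the same on both strands, were counted in each window and averaged where a gene had several. The median was 21.5 CpGs over the 8 matched genes above the range and 12.0 over the 29 that were not, beside 21.0 over all 5920 matched genes above the range and 9.0 over the 9694 that were not. A window with at least 10 CpGs was held by 7 of the 8, or 87.5%, beside 84.2% of all matched genes above the range. It was held by 17 of the 29, or 58.6%, beside 49.4% of all matched genes that were not, so both shares followed those of all genes in direction. Cd44 was the exception among the 8, with 6 CpGs, and Cdh22, with 38, was the richest of the 29.

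The windows of 4 subunits are shown because they belong to integrin pairs described above. Itga4, Itgb1 and Itgav were above the range, and Itgb7, an alternative partner of alpha-4, was not. CpGs are in capitals, and each window is given 5′ to 3′ along the gene's strand. They lie at chr2:79255176-79255475 on the plus strand for Itga4, chr8:128685404-128685703 on the plus strand for Itgb1, chr2:83724147-83724446 on the plus strand for Itgav and chr15:102231886-102232185 on the minus strand for Itgb7.
Itga4: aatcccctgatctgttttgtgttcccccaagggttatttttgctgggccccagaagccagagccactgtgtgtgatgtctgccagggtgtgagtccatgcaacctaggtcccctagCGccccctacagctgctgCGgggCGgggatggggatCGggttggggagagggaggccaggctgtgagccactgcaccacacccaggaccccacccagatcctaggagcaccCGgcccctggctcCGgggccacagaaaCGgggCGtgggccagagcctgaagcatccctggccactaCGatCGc
Itgb1: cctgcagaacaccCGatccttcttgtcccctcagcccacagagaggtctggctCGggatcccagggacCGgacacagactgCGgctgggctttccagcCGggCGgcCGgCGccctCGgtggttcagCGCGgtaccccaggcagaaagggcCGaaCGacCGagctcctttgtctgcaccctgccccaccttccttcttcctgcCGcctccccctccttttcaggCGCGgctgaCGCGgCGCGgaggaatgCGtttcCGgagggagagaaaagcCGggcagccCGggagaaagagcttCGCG
Itgav: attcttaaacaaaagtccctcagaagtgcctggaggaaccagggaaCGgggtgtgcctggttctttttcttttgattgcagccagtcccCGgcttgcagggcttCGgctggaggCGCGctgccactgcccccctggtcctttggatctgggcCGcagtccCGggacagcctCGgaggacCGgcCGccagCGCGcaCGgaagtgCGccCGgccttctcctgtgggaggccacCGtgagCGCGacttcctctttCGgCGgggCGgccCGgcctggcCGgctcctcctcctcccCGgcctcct
Itgb7: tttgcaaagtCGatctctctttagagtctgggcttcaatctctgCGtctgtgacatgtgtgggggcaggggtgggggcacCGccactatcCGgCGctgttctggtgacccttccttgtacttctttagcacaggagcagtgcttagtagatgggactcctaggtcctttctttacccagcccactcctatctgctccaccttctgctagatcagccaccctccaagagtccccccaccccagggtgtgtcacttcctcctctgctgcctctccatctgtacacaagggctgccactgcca

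These windows hold 10, 27, 24 and 5 CpGs in that order, with GC contents of 64.3%, 67.3%, 67.3% and 56.3%. On either strand, the letters TATAAA were in the windows of 2 of the 37 genes, beside 13.6% of all matched genes. CCGGAAG, an ETS-type word that itself contains a CpG, was in 2 of the 37, beside 13.6% of all, and TGTGGT, a RUNX-type word, in 6 of the 37, beside 16.4% of all. These are matches of letters and not binding sites.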

How the data were processed

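Per the submitters' processing notes, the authors made RMA values with Affymetrix Expression Console and deposited 1 table of 35554 probe sets by 3 arrays. Versions, genome build and which arrays were run together were not given in the sources used here. The deposited intensities run from 2.82 to 18384 and were taken as linear, then converted to log2 with no pseudocount. RMA evens out array-wide brightness, and the medians over all genes were 5.96, 5.95 and 5.94 log2 on arrays 1, 2 and 3. The background limits still differed, at 6.30, 5.98 and 5.77 log2. The number of arrays also limits precision.

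Probe sets were named from the platform annotation: 21789 named 1 gene and were used, 1621 named several and 12144 were not listed. Probe sets of a gene were averaged, which gave 19938 genes. Variation was tested in R 4.3.3 with limma 3.58.1 (variance on 2 degrees of freedom against a robust trend with 4.34 prior degrees of freedom, one-sided F test, threshold 0.05), checked on simulated data. Python 3.11.15 did the rest.

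Members, classes, pairs and lists were chosen with earlier results of these data known. Named by rule: all members, the first 4 measured genes of each adhesion list and 3 of each marker list, and the smaller side of a count up to 5. Further list genes were named outside this rule, among them Fermt3, Tpst1, Tpst2, Fut4, Fut7, Sirpa, the collagen genes and the hyaluronan synthases. Alternatives changed the limit, arrays needed, probe set, normalization, prior, filter and pseudocount (16), and left out each array.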

Additional observations from a re-analysis of the deposited data

How the results depend on the processing

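The 11 adhesion genes above the background range remained so under 9 of the 10 alternatives, the exception being the 99th percentile limit, which lost Icam1 and Icam2. The 90th percentile, the call on 2 of 3 arrays and the leaving out of an array could only add genes. They therefore do not test whether the 11 hold. Nor does the brightest probe set test much, since among the 11 only Cd47 has more than 1 probe set. The 99th percentile limit left 3 immunoglobulin superfamily genes, 23 genes of the other adhesion lists, against 52 as reported, and 3469 of all genes, against 7345. The 90th percentile gave 20 adhesion genes, with 6 alpha and 4 beta subunits, 1 type I and 1 type II cadherin and 8 pairs. Asking for 2 of 3 arrays also gave 20, with 6 alpha and 3 beta subunits, 1 cadherin of each of these types, 2 genes of the selectin class and 7 pairs. The brightest probe set added Cdh24 as 1 type II cadherin. Leaving out each array in turn gave 11 to 18 adhesion genes, 3 to 5 alpha and 1 to 3 beta subunits, 0 to 1 type I and 0 to 1 type II cadherins, 1 to 2 of the selectin class and 3 to 6 pairs. The highest counts came without array 1, except for the selectin class, where Sele joined without array 2. Olfactory receptor genes alone as the limit and quantile normalization kept the same 11, and so did median centring, which moves the limit with the values. No gene passed the variation test under any of its 9 alternatives, where 0 to 3 of the adhesion genes reached an unadjusted p under 0.05 in limma, with a lowest adjusted p of 0.666. Each alternative again set the variances against a prior fitted to the same genes. No paired analysis was possible because there is 1 group. With 3 arrays and no detection calls, a gene as near the limit as Cdh24 cannot be placed on either side.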

Other observations

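Other immunoglobulin superfamily adhesion genes were above the background range in 5 of 19 cases, 26.3% against 36.8% of all genes. They were Esam, an endothelial and stem cell adhesion molecule, at 6.17 ± 0.19 log2 (SD, n = 3), Pecam1 at 6.53 ± 0.45, Mcam at 6.58 ± 0.04, Cadm1 at 6.66 ± 0.11 and Cd99l2 at 6.10 ± 0.22. Ncam1 was at 5.77 ± 0.26 log2 and passed on array 2 only. Under the 99th percentile limit 0 of the 19 were above, against 17.4% of all genes. Of the other cadherin superfamily, 1 of 20 was above it, against 36.8% of all genes, or 4 without array 1, against 46.9%, and 0 at the 99th percentile, against 17.4%. The 1 was Clstn1, which encodes calsyntenin-1, at 6.75 ± 0.10 log2. The desmosomal genes Dsg2, Dsc2, Dsg3 and Dsc3 were below the limit on every array, at 4.19 ± 0.22, 4.96 ± 0.25, 4.60 ± 0.49 and 4.41 ± 0.38 log2.

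Matrix and counter-receptor ligands had 7 of 26 above the range, 26.9% against 36.8% of all genes, or 1 at the 99th percentile, against 17.4%. Fn1, which encodes fibronectin, was at 6.00, 6.72 and 6.19 log2 on arrays 1, 2 and 3 and missed it on array 1 alone. Vtn for vitronectin, Tnc for tenascin-C and Thbs1 for thrombospondin-1 were at 5.02 ± 0.12, 5.31 ± 0.29 and 5.73 ± 0.20 log2, the last passing on array 3 only. Those above it were Lamb2, the collagen genes Col1a1, Col1a2, Col4a1 and Col4a2, Tgfbi and Sirpa, the receptor of CD47, at 8.28 ± 0.25 log2. The hyaluronan synthases Has1, Has2 and Has3, which make the ligand of CD44, were below the limit on every array.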
